A study of Mus musculus with 12 samples.

Results

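The dual specificity phosphatases of MAP kinases are enzymes that remove phosphate from both the threonine and the tyrosine residue that switch a MAP kinase on. The 9 genes described here, Dusp1, Dusp2, Dusp3, Dusp4, Dusp5, Dusp6, Dusp7, Dusp10 and Dusp16, were taken by symbol from a table of 14460 genes. RNA was sequenced from GFP-positive cells sorted from hearts of Cx3cr1GFP/+ mice aged 2-3 months, in which GFP sits in 1 copy of the chemokine receptor gene Cx3cr1 in every group, controls included. Hearts of day 0 had no surgery, and hearts of days 3, 7 and 30 were taken that long after cryoinjury, a freezing injury that serves as a model of myocardial infarction. Each of the 4 groups held 3 libraries, labelled as independent biological replicates. Cells of days 0, 7 and 30 were Ly6c-low and CX3CR1-high and cells of day 3 Ly6c-high and CX3CR1-low, so in every comparison with day 3 the time after injury and the sorting gate cannot be told apart. There was no group with surgery but no injury, and the GFP-positive cells are those in which the Cx3cr1 gene is active.

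MAP kinase cascades carry signals from cytokine, growth factor and pattern recognition receptors to the nucleus through the ERK, JNK and p38 kinases. The phosphatases end these signals, and several of their genes are themselves switched on by the kinases, which makes a negative feedback loop. In macrophages DUSP1 is known to limit cytokine production after toll-like receptor signals. By location and substrate the family falls into inducible nuclear enzymes (DUSP1, DUSP2, DUSP4 and the ERK-specific DUSP5), cytoplasmic ERK phosphatases (DUSP6 and DUSP7), phosphatases that prefer JNK and p38 (DUSP10 and DUSP16), and the small DUSP3, which lacks the kinase-docking domain of the others.

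The start regions of 3 genes with different time courses are shown to let their sequences be compared. They are the 250 bases before the RefSeq start on build GRCm38.p6, read 5′ to 3′ on the strand of the gene. Dusp1 lies at chr17:26508473-26508722 on the minus strand, Dusp5 at chr19:53528895-53529144 on the plus strand and Dusp6 at chr10:99262981-99263230 on the plus strand. Capitals mark the cyclic AMP response element (CRE) TGACGTCA, its shorter form TGACG, the E box CACGTG, the serum response CArG box and the CCAAT box, each searched on both strands.
Dusp1: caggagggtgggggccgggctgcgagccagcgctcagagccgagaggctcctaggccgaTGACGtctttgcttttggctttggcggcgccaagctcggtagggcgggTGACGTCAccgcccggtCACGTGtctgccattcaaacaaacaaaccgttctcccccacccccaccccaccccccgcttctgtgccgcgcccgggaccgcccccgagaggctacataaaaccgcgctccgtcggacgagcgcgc
Dusp5: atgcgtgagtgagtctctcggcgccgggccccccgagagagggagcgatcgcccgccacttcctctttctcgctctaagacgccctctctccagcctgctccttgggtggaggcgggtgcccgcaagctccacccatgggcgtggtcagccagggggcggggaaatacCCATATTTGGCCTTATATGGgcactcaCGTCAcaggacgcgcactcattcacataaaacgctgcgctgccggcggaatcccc
Dusp6: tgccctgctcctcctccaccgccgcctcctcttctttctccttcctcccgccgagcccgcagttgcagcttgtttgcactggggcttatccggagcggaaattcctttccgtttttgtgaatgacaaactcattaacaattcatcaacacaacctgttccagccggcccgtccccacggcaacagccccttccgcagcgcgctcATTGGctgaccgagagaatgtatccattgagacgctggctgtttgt
A window of 300 bases, 250 before and 50 after the start, was found for 8 of the 9 genes. The full CRE lay in 1 of the 8, Dusp1, at -143 to -136 from the start, and in 1.79% of all 32841 such windows. Its shorter form, which the full element contains, was in 4 of the 8 (Dusp1, Dusp2, Dusp5 and Dusp16) and in 20.8% of all windows. The CArG box was in Dusp5, as a pair at -82 to -73 and -72 to -63, and in 1.63% of all windows. The E box was in Dusp1 and Dusp2 and in 7.15% of windows, and the GC box GGGCGG in 7 of the 8 and 35.7% of windows. Of the shown regions Dusp6 held the CCAAT box alone among the marked motifs, and that box was in 5 of the 8 and in 37.4% of windows. None of the 8 windows held the AP-1 site TGANTCA, which was in 7.81% of all windows, or the NF-kB site, in 6.93%. The same was true of the EGR site, GCGTGGGCG, at 0.612% of all windows. The ETS site, CCGGAAG, at 8.86%, was absent from them too. So was the TATA box in the form TATAAA, found in 13.6% of all windows. The GC content was 67% for Dusp1, 66.7% for Dusp5 and 57.3% for Dusp6, against a median of 52.7% over all windows. Over the 8 windows it was 57.3% to 78.7%, and they held 19 to 41 CG pairs, against a median of 7 over all windows. The CRE, its shorter form, the E box and the GC box each contain CG. Their shares over all windows thus come from windows poorer in CG, and a comparison with windows of like CG content was not made.

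Values are normalised read counts on a linear scale (signal), in which 1 read was worth 0.0634 to 0.181 depending on the library. Depth was 5828904 to 13199576 reads per library. The macrophage genes Csf1r, Cd68 and Adgre1 were present in every library. From day 0 to day 3 the group means of Csf1r (1599 to 559.8), Adgre1 (638 to 202), Mertk (90.5 to 71.8) and Lyz2 (11922 to 5678) fell. Those of Cd68 (392 to 982), Fcgr1 (92.7 to 629) and Itgam (468 to 1219) rose. Cx3cr1 had 153 ± 6.82 signal (SD, n = 3) on day 0, 38.9 ± 5.11 on day 3, 174 ± 31.2 on day 7 and 131 ± 3.78 on day 30, and Ly6c2 had 852 ± 205 on day 3 and group means of 2.81 to 17.3 on the other days. The first day 0 library and the second day 7 library stood apart from the others of their day, with chi-square values per gene between 58.1 and 61.9, and 77.4 and 82.8, where the other day 0 pair had 16.8 and the other day 7 pair 13.7. The first day 3 library also differed from the others of its day, at 23.7 and 32 against 5.82 for the other pair. It was left out only on its own. The day 30 libraries differed far less than those of any other day (2.16 to 2.88 per gene), so their spread may be technical, and each day 30 result was also computed with them averaged as 1 sample. The 7 macrophage markers summed to a signal of 7485 to 19152 per library, most of it from Lyz2, which alone had 4004 to 15466. The 7 endothelial markers reached at most 189.7 in a library, 4 B cell markers 34.5, 5 mast cell markers 38.9 and 6 dendritic cell markers 84.7, and on day 3 the mast cell genes Cpa3, Cma1, Mcpt4 and Tpsb2 and the cardiomyocyte gene Myl3 were at 0 in every library. In these bulk samples fewer cells with a transcript and less of it per cell cannot be told apart.

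Dusp1 was by far the most abundant of the 9 transcripts. Per kb of exon, the scale on which genes can be compared, it had a signal of 219.6 ± 139 on day 0, 335 ± 41 on day 3, 118 ± 14.3 on day 7 and 383 ± 10.2 on day 30. In signal, which is not corrected for gene length, it exceeded 99.5% of tested genes over all libraries. Dusp6 had 49.4 ± 1.41, 18.1 ± 1.5, 25.4 ± 5.55 and 36.3 ± 1.45 per kb on days 0, 3, 7 and 30, and exceeded 90% of tested genes in signal. It was second on days 0, 7 and 30, while on day 3 Dusp3, at 20.2 ± 0.779, was above it. Dusp3 stayed between 15 and 20.2 per kb in its group means, Dusp16 between 3.46 and 9.08 and Dusp7 between 3.92 and 9.31. Dusp2, Dusp5 and Dusp10 had group means of 0.683 to 9.52 per kb, and Dusp4 of 0.216 to 0.616.

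**Figure D1:**
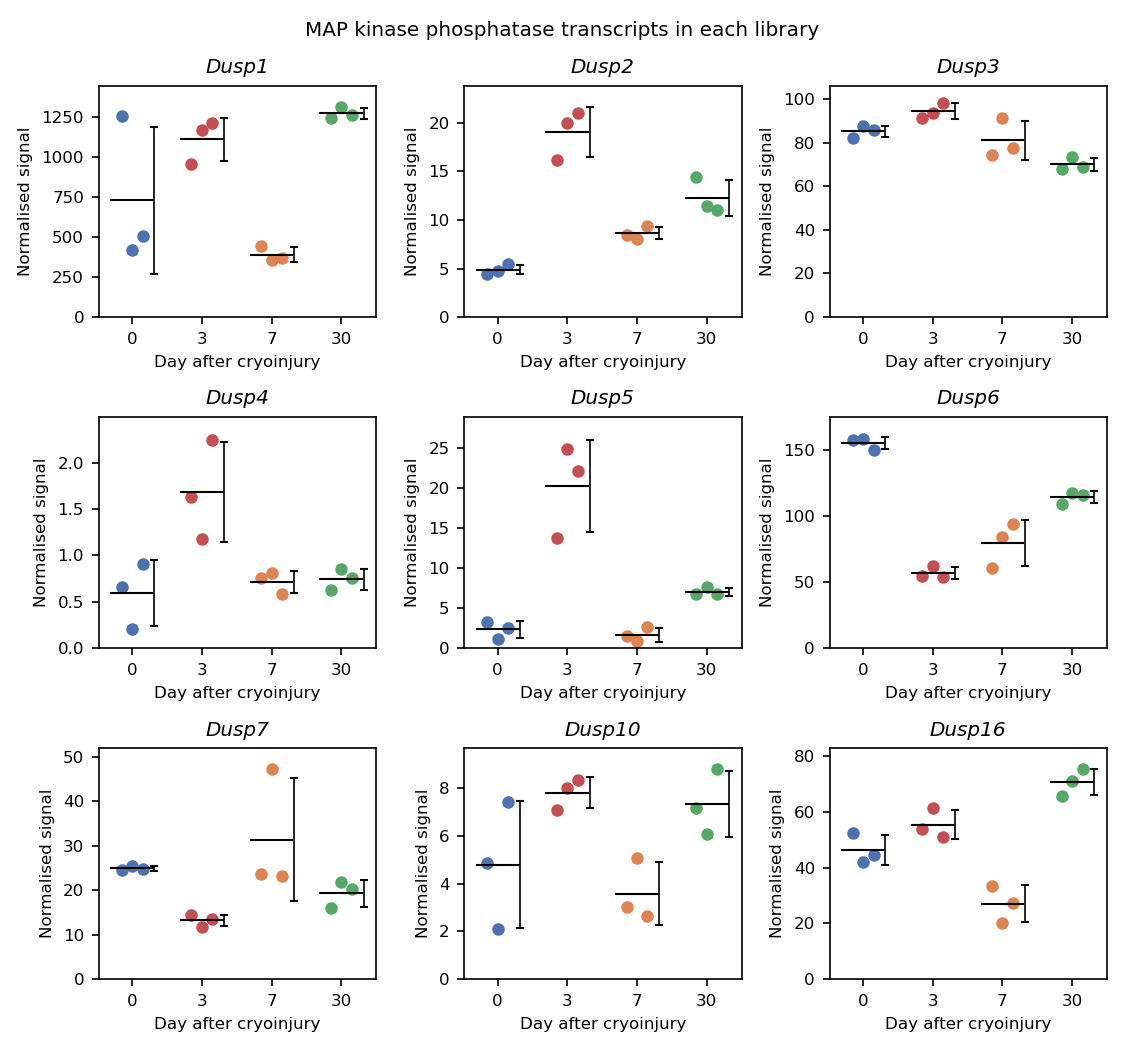
Normalised signal of each of the 9 genes (vertical axes from 0, a scale per gene) on days 0, 3, 7 and 30; points are single libraries, horizontal lines group means and bars ± SD (n = 3). Dusp1 and Dusp16 were lowest on day 7 and highest on day 30, Dusp2 and Dusp5 were highest on day 3, and Dusp6 was highest on day 0.

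Changes were tested by limma on log2(signal + 1) with Benjamini-Hochberg adjustment over the 12879 genes whose signal averaged 1 or more, and a gene passed at an adjusted p under 0.05. Fold changes are on that scale, given ± SE (n = 3 against 3), and understate the change of low genes. Of the 9 genes 8 were tested, and Dusp4 was below the filter with a mean of 0.935. In the F test over the 4 groups 8 of the 8 passed, where 63.9% of all tested genes did. The adjusted p ran from 3.57e-06 for Dusp5 to 0.0486 for Dusp3.

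Dusp1 encodes an inducible nuclear phosphatase of p38, JNK and ERK, and its gene lies on chromosome 17 (26505590 to 26562128, minus strand, GRCm38). This span is the outer limit of the GENCODE M21 annotation. The RefSeq start region shown above, 26508473 to 26508722, lies inside it, so the span is not that of the RefSeq transcript. Its signal in replicates 1, 2 and 3 was 1255, 418 and 508 on day 0, 953, 1164 and 1207 on day 3, 444, 357 and 369 on day 7, and 1242, 1307 and 1259 on day 30. The first day 0 library thus lay within the day 30 values and above those of day 3, while the other day 0 libraries lay near those of day 7. Dusp1 fell from 1108 ± 136 on day 3 to 389.9 ± 47.4 on day 7, a 2.84-fold drop on the fitted scale (SE 0.29 in log2, adjusted p = 0.000686), and between day 7 and day 30 it rose by 1.71 ± 0.29 (adjusted p = 0.000504), with no overlap in either comparison. Both calls kept their direction and passed under each of 24 alternative analyses. Day 30 and day 3 differed by 0.20 ± 0.29 (adjusted p = 0.619).

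Against day 0, Dusp1 passed on day 3 only just, at 0.77 ± 0.29 (adjusted p = 0.0409), and the values overlapped. This call ended under 12 of 24 alternatives, among them edgeR on the recovered reads (0.62, adjusted p = 0.111), DESeq2 (0.62, 0.0723), quantile normalisation (0.42, 0.2) and leaving out replicate 2 or 3 of day 0 (0.46 and 0.60, adjusted p = 0.221 and 0.163), replicate 2 or 3 of day 3 (adjusted p = 0.104 and 0.118) or any day 30 library (0.0526 to 0.0533). Without the first day 0 library it was 1.26 (adjusted p = 3.38e-05). Day 30 minus day 0 was 0.98 ± 0.29 (adjusted p = 0.0589) and 1.46 (adjusted p = 0.0001) without that library. It passed as well without the second day 7 library (0.0349), with a mean of at least 5 (0.0498) and under quantile normalisation (0.0247). Day 7 minus day 0 was -0.73 ± 0.29 (adjusted p = 0.0844), and it was -0.25 (adjusted p = 0.333) without the first day 0 library. It passed without the second (-1.04, adjusted p = 0.0262), under quantile normalisation (-0.75, 0.0428), by edgeR (-0.91, 0.0464) and by DESeq2 (-0.90, 0.0149).

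Early response genes, which cells switch on within minutes of a stimulus or of handling, were high in sum in the same libraries as Dusp1. The summed signal of 20 of them was 6989, 2354 and 2708 in the day 0 libraries, 5337 to 7548 on day 3, 1878 to 2452 on day 7 and 8081 to 8269.7 on day 30. The single genes did not all follow: from day 0 to day 3, where 44.2% of all tested genes passed, 8 of the 18 tested ones rose and 4 fell. Zfp36, a large part of the day 3 sum, rose from 833 ± 799 to 2586 ± 581, while Egr1 fell from 394 ± 276 to 65.5 ± 7.08 (-2.36 ± 0.31, adjusted p = 1.96e-05). Klf2, Myc and Jund also fell. From day 3 to day 7, where Dusp1 fell, Egr1 rose to 153 ± 23.4 (adjusted p = 0.00561). Zfp36, Klf2, Myc and Jund, and Egr1 in the second comparison, were named after their values were seen. In the first day 0 library all 18 tested ones were higher than in the other day 0 libraries, as were 40.6% of all tested genes, and 15 of the 18 were more than 1.5 times both, as were 5.44% of all. Of the 8 tested phosphatases only Dusp1 exceeded 1.5 times both there. Of these 18 genes, 17 rose and none fell from day 7 to day 30, with a median of 1.86 (0.01 over all genes), where 19.7% of all genes rose and 19.9% fell. With the day 30 libraries averaged 9 of the 18 rose and none fell. Nr4a1 rose by 2.55 ± 0.43 (adjusted p = 0.000478) and Fosb by 2.41 ± 0.44 (0.000836). The first day 0 library also differed in markers of other cells. Its endothelial sum was 15.4 against 189.7 and 136, and its T and NK cell sum 27.7 against 191 and 137. The fibroblast sum was 40 against 110.3 and 118. Cardiomyocyte, neutrophil, B cell and dendritic cell sums were lower there too, while the mast cell sum was higher (38.9 against 23.3 and 22.5). The parts of cell handling and of these other cells in the Dusp1 result were not tested.

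**Figure D2:**
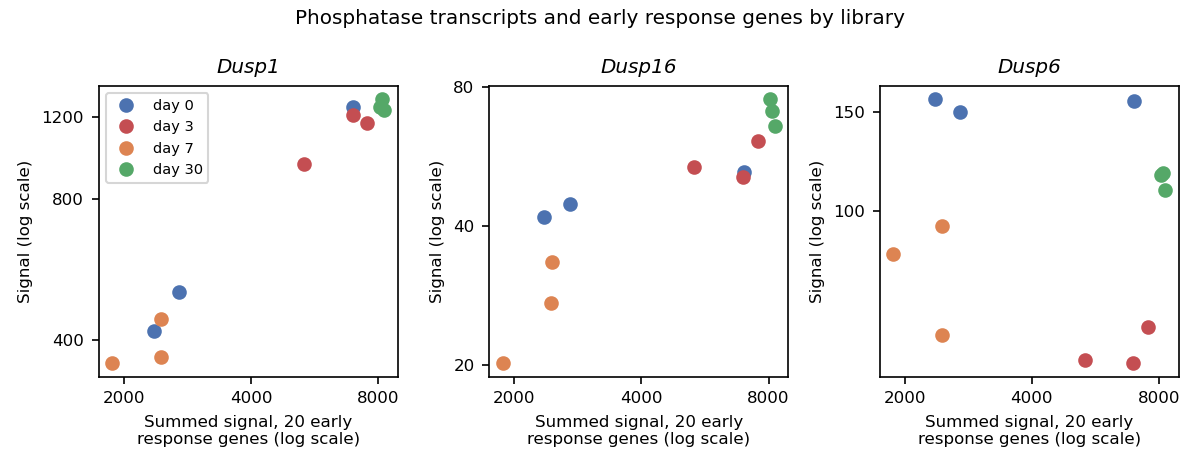
Signal of Dusp1, Dusp16 and Dusp6 (vertical log axes) against the summed signal of 20 early response genes (horizontal log axes) in the 12 libraries, coloured by day. The first library of day 0 (sum 6989) lay with the day 3 and day 30 libraries for Dusp1 (1255), while Dusp6 was 157 there and 158 and 149.8 in the other day 0 libraries.

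Dusp5, on chromosome 19 (53529109 to 53542431, plus strand), encodes a nuclear phosphatase specific to ERK and changed most of the family. Its signal was 3.3, 1.15 and 2.54 on day 0, 13.8, 24.8 and 22.1 on day 3, 1.51, 0.925 and 2.63 on day 7, and 6.71, 7.63 and 6.78 on day 30. Every day 3 library was above every library of the other days, and days 0 and 7 overlapped. Dusp5 rose by 2.69 ± 0.31 from day 0 to day 3 (adjusted p = 4.16e-06) and fell by 2.99 from day 3 to day 7 (SE 0.31, adjusted p = 2.48e-06). With a pseudocount of 5 these were 1.77 and -1.90, and both changes passed under all 24 alternatives. Day 7 and day 0 differed by -0.30 ± 0.31 (adjusted p = 0.515).

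On day 30 Dusp5 was again above day 7, by 1.63 ± 0.31 (adjusted p = 0.00104; 2.11 with a pseudocount of 0.1 and 0.86 with 5), and below day 3 (-1.36 ± 0.31, adjusted p = 0.00241). It was also above day 0, by 1.33 ± 0.31 (adjusted p = 0.0188), or 1.67 with a pseudocount of 0.1 and 0.73 with 5. The last call ended without the second day 0 library (adjusted p = 0.0938) and without replicate 1, 2 or 3 of day 30 (0.0664, 0.0912 and 0.0741). With the day 30 libraries averaged as 1 sample, adjusted p was 0.537 against day 0, 0.0762 against day 3 and 0.0599 against day 7. Reads of Dusp5 numbered 8 to 25 in the libraries of days 0 and 7, and 547 bases of its exons are shared with an antisense transcript, so with the strand setting of the counting unknown a part of them could be of that transcript.

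Dusp2, on chromosome 2 (127336159 to 127338376, plus strand), encodes a nuclear phosphatase of ERK and p38 found mainly in activated immune cells. Its signal was 4.49, 4.72 and 5.43 on day 0, 16.2, 20 and 21 on day 3, 8.48, 8.09 and 9.35 on day 7, and 14.4, 11.4 and 11 on day 30. The 4 groups did not overlap, in the order day 3, day 30, day 7, day 0. Dusp2 rose by 1.77 ± 0.19 from day 0 to day 3 (adjusted p = 2.16e-06) and fell by 1.05 from day 3 to day 7 (SE 0.19, adjusted p = 0.000382). It remained above day 0 on day 7, by 0.71 ± 0.19 (adjusted p = 0.015; 0.47 with a pseudocount of 5), and on day 30, by 1.17 ± 0.19 (adjusted p = 0.00221).

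Day 30 and day 7, neighbours in the order of Dusp2, did not pass apart (0.46 ± 0.19, adjusted p = 0.065), but passed under quantile normalisation (0.024), median centring (0.0323) and edgeR (0.047). The day 7 call against day 0 ended where only those groups entered the fit (adjusted p = 0.125), and the day 30 call where the day 30 libraries were averaged (0.261). Day 30 was below day 3 by a log2 difference of -0.59 ± 0.19 (adjusted p = 0.0207), which ended with the day 30 libraries averaged (0.238) and without replicate 2 or 3 of day 3 (0.0687 and 0.0872) or of day 30 (0.0812 and 0.0957). The 10 T and NK cell markers summed to 27.7 to 191 on day 0, 72.7 to 140.3 on day 3, 33.8 to 79.9 on day 7 and 23.3 to 28.5 on day 30. Il7r and Gzma made up most of that sum, with means of 37.5 and 25.1 over the 12 libraries. Cd3e, Cd3d and Cd3g averaged 0.948, 0.903 and 0.534. The neutrophil markers, of which 6 of 7 were in the table, summed to 245 to 309 on day 3 and to 53.2 to 160.2 on the other days, and were highest on day 3 without overlap. Over the 12 libraries most of their sum was Csf3r, with a mean of 97.6. Mmp8 had 18.2, S100a8 7.77 and S100a9 7.89. The part of the T and NK cell and neutrophil markers in the Dusp2 and Dusp5 values was not tested.

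Dusp4, on chromosome 8 (34807297 to 34819894, plus strand), the nuclear relative of Dusp1, was hardly detected, with 2 to 17 reads per library. Its signal was 0.66, 0.21 and 0.906 on day 0, 1.63, 1.18 and 2.25 on day 3, 0.757, 0.809 and 0.584 on day 7, and 0.624, 0.848 and 0.761 on day 30. The day 3 libraries were the highest of the 12, without overlap. With no filter on low genes the day 3 minus day 0 difference was 0.76 ± 0.25 (limma, adjusted p = 0.0253) and the F test over the 4 groups did not pass (adjusted p = 0.0623).

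The cytoplasmic ERK phosphatase gene Dusp6, on chromosome 10 (99263231 to 99267489, plus strand), had the opposite course to Dusp2 against day 0. Its signal was 157, 158 and 149.8 on day 0, 54.4, 62.2 and 53.7 on day 3, 60.3, 84 and 94.1 on day 7, and 109, 117 and 116 on day 30. The day 0 libraries were the highest of all and those of day 30 came next, with no overlap between these days, and only days 3 and 7 overlapped. Dusp6 fell by 1.43 on the log2 scale from day 0 to day 3 (SE 0.16, adjusted p = 2.6e-06), and was below day 0 on day 7 as well (-0.98 ± 0.16, adjusted p = 0.000466). Both calls held under all 24 alternatives. Day 30 minus day 0 was -0.44 ± 0.16 and did not pass (adjusted p = 0.108), though it did without replicate 1 or 2 of day 7 (0.0406 and 0.0461), under quantile normalisation (0.0436) and with the compared groups alone (0.00425).

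After day 3 Dusp6 was higher again. Day 30 exceeded day 3 by 0.99 ± 0.16 (adjusted p = 0.000124) under every alternative. Day 30 exceeded day 7 by 0.54 ± 0.16 (adjusted p = 0.014), which ended without replicate 2 or 3 of day 30 (adjusted p = 0.0517 and 0.0516) or with the 3 averaged (0.208), and was 0.35 (adjusted p = 0.048) without the first day 7 library. The rise from day 3 to day 7 (0.46 ± 0.16, adjusted p = 0.0257) was 0.73 under quantile normalisation and ended under 6 alternatives, including median centring (0.0666) and leaving out replicate 1 or 3 of day 3 (0.0648 and 0.0821) or the third day 7 library (0.104). The 10 cardiomyocyte markers summed to 81.3 to 394 on day 0, 11.2 to 16.9 on day 3, 83.9 to 212 on day 7 and 25 to 26.1 on day 30, and so were lowest on day 3 like Dusp6. In the first day 0 library, where they were 81.3 against 242 and 394, Dusp6 was 157 against 158 and 149.8. The largest of the cardiomyocyte markers over the 12 libraries was Ttn, with a mean of 52.2, ahead of Myh6 with 13.4. The part of these markers in the Dusp6 result was not tested.

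Dusp7, on chromosome 9 (106368632 to 106375724, plus strand), encodes the other cytoplasmic ERK phosphatase. Its signal was 24.4, 25.5 and 24.8 on day 0, 14.3, 11.7 and 13.5 on day 3, 23.5, 47.2 and 23.1 on day 7, and 15.9, 21.8 and 20.2 on day 30. The day 3 libraries were the lowest, and the second day 7 library was the highest by far. Dusp7 fell by 0.88 from day 0 to day 3 (SE 0.23, adjusted p = 0.00659) and rose by 1.11 ± 0.23 from day 3 to day 7 (adjusted p = 0.00129), or by 0.78 (adjusted p = 0.00143) without the second day 7 library. Day 7 minus day 0 was 0.24 ± 0.23 (adjusted p = 0.496) and turned to -0.09 without that library.

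Day 30 minus day 7 in Dusp7 was -0.60 ± 0.23 (adjusted p = 0.0522). It was -0.27 (adjusted p = 0.219) without the second day 7 library, and it passed without replicate 1 or 3 of day 7 (adjusted p = 0.026 and 0.0234), by edgeR (-0.69, 0.0373), by DESeq2 (-0.71, 0.0246) and with a mean of at least 5 (0.045). Day 30 minus day 3 was 0.51 ± 0.23 (adjusted p = 0.0951), and it passed without the second day 7 library (adjusted p = 0.00949) and with the compared groups alone (0.0172). The 8 fibroblast markers summed to 2190.2 in that library, 776 and 557 in the other day 7 libraries, 40 to 118 on day 0, 285 to 383 on day 3 and 168 to 174 on day 30. Days 3 and 30 were above day 0 in these markers. Dusp7 was lower on day 3 than on day 0, and its day 30 minus day 0 difference, -0.36 ± 0.23, did not pass (adjusted p = 0.376). The part of the fibroblast markers in the Dusp7 values was not tested.

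Dusp16, on chromosome 6 (134715468 to 134792625, minus strand), encodes a phosphatase of JNK and p38, and followed the same order of days as Dusp1. Its signal was 52.4, 42 and 44.7 on day 0, 53.9, 61.3 and 51.1 on day 3, 33.5, 20.2 and 27.3 on day 7, and 65.9, 71.1 and 75.4 on day 30. Day 7 was lowest and day 30 highest without overlap with any other day, while days 0 and 3 overlapped. Dusp16 fell from day 3 to day 7 (-1.04 ± 0.17, adjusted p = 0.000226) and rose from day 7 to day 30 by 1.38 ± 0.17 (adjusted p = 6.98e-05), under all 24 alternatives. It was below day 0 on day 7 (-0.78 ± 0.17, adjusted p = 0.00557), a call that ended where only those groups entered the fit (adjusted p = 0.0552). Day 30 minus day 0 was 0.60 ± 0.17 (adjusted p = 0.0523), and it passed without the first day 0 library (0.69, adjusted p = 0.0425) and without the first or second day 7 library (adjusted p = 0.03 and 0.00649), as it did by edgeR (0.0485), by DESeq2 (0.0138), under median centring (0.0434), with a pseudocount of 5 (0.0452), with a mean of at least 5 (0.0441) and with the compared groups alone (0.00556). Day 3 minus day 0 was 0.25 ± 0.17 (adjusted p = 0.253), and 0.34 (0.0395) without both libraries that stood apart. Day 30 minus day 3 was 0.35 ± 0.17 (adjusted p = 0.127). It passed without the second day 7 library (adjusted p = 0.0349), under quantile normalisation (0.0288) and with the compared groups alone (0.0162).

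Dusp10, on chromosome 1 (184013302 to 184075636, plus strand), the other phosphatase that prefers JNK and p38, was low. Its signal was 4.88, 2.1 and 7.43 on day 0, 7.09, 8.03 and 8.34 on day 3, 3.03, 5.09 and 2.63 on day 7, and 7.17, 6.08 and 8.81 on day 30. Day 7 lay below days 3 and 30 without overlap, and day 0 spread across the range of the other days. Dusp10 fell from day 3 to day 7 (-0.98 ± 0.32, adjusted p = 0.0202) and rose from day 7 to day 30 by 0.89 ± 0.32 (adjusted p = 0.0371), or -0.59 and 0.53 with a pseudocount of 5. The first call ended without replicate 2 or 3 of day 3 (adjusted p = 0.0543 and 0.0598) and without replicate 1 or 3 of day 7 (0.0551 and 0.0699). The second ended without those day 7 libraries (0.0848 and 0.105), without replicate 1, 2 or 3 of day 30 (0.085, 0.0549 and 0.132) and with the 3 averaged (0.27). Against day 0, Dusp10 stood at 0.72 ± 0.32 on day 3 (adjusted p = 0.0803), -0.26 ± 0.32 on day 7 (0.59) and 0.63 ± 0.32 on day 30 (0.259). The day 3 value was 0.32 (adjusted p = 0.395) without the second day 0 library, 1.04 (0.0173) without the third and 0.92 (0.0361) under quantile normalisation, and the day 30 value was 0.23 (0.709) and 0.96 (0.12) without the second and the third.

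Dusp3, on chromosome 11 (101971143 to 101987013, minus strand), encodes the small phosphatase of ERK and JNK and varied least. Its signal was 82.2, 87.5 and 85.7 on day 0, 91.2, 93.5 and 98.4 on day 3, 74.5, 91.4 and 77.4 on day 7, and 67.9, 73.4 and 68.7 on day 30. The day 30 libraries were the lowest of all, without overlap. The difference of day 30 from day 3 passed at -0.43 ± 0.13 (adjusted p = 0.0151), and it ended under quantile normalisation (-0.19, adjusted p = 0.278), with the day 30 libraries averaged (0.231) and without the third day 3 library (0.0601) or replicate 1 or 3 of day 30 (0.0643 and 0.0598). The other differences were 0.15 ± 0.13 (day 3 minus day 0, adjusted p = 0.372), -0.07 ± 0.13 (day 7 minus day 0, 0.71), -0.28 ± 0.13 (day 30 minus day 0, 0.211, and 0.0335 with the compared groups alone), -0.22 ± 0.13 (day 7 minus day 3, 0.168) and -0.20 ± 0.13 (day 30 minus day 7, 0.21). Day 7 minus day 3 passed without the second day 7 library (-0.31, adjusted p = 0.0283). An antisense transcript shares 604 bases with the exons of Dusp3.

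The 8 tested phosphatases are now set side by side in each comparison, which share groups and so are not independent of each other. On day 3 against day 0, Dusp1, Dusp2 and Dusp5 rose and Dusp6 and Dusp7 fell, 5 of 8, where 44.2% of all tested genes passed, 22.1% higher and 22.1% lower. In this comparison 5 of the 8 did not overlap between the groups, against 55.4% of all genes. On day 7 against day 0, Dusp2 rose and Dusp6 and Dusp16 fell, 3 of 8 against 21.6% of all (11.4% higher, 10.2% lower), with 3 not overlapping against 32.2%. On day 30 against day 0, Dusp2 and Dusp5 rose and none fell, 2 of 8 against 6.18% of all (3.45% higher, 2.73% lower), and 6 did not overlap against 40.8%. That count was 0 with the day 30 libraries averaged, 4 without the first day 0 library, 1 without the second and 1 without any 1 of the day 30 libraries, and 4 and 5 without the first and second day 7 library.

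Among the injured hearts, 4 to 7 of the 8 passed in each comparison. On day 7 against day 3, 7 of the 8 passed, 5 lower (Dusp1, Dusp2, Dusp5, Dusp10 and Dusp16) and 2 higher (Dusp6 and Dusp7), where 46.8% of all tested genes passed (23.5% lower, 23.3% higher). Here 6 did not overlap against 50.9% of all genes, and the median change was -1.01 (0.04 over all genes). On day 30 against day 7, within 1 gate, 5 of 8 passed, each of them higher (Dusp1, Dusp5, Dusp6, Dusp10 and Dusp16), where 39.6% of all genes passed (19.7% higher, 19.9% lower). All 8 did not overlap, against 55.3% of all genes, and the median was 0.72 (0.01 over all genes). With the day 30 libraries averaged 2 of 8 passed, and 3 of 8 without replicate 2 or without replicate 3 of day 30. On day 30 against day 3, Dusp6 rose and Dusp2, Dusp3 and Dusp5 fell, 4 of 8 against 39.4% of all genes (19.2% higher, 20.3% lower), with 7 not overlapping against 62.4%. That count was 1 with the day 30 libraries averaged and 2 without replicate 3 of day 3 or of day 30.

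**Figure D3:**
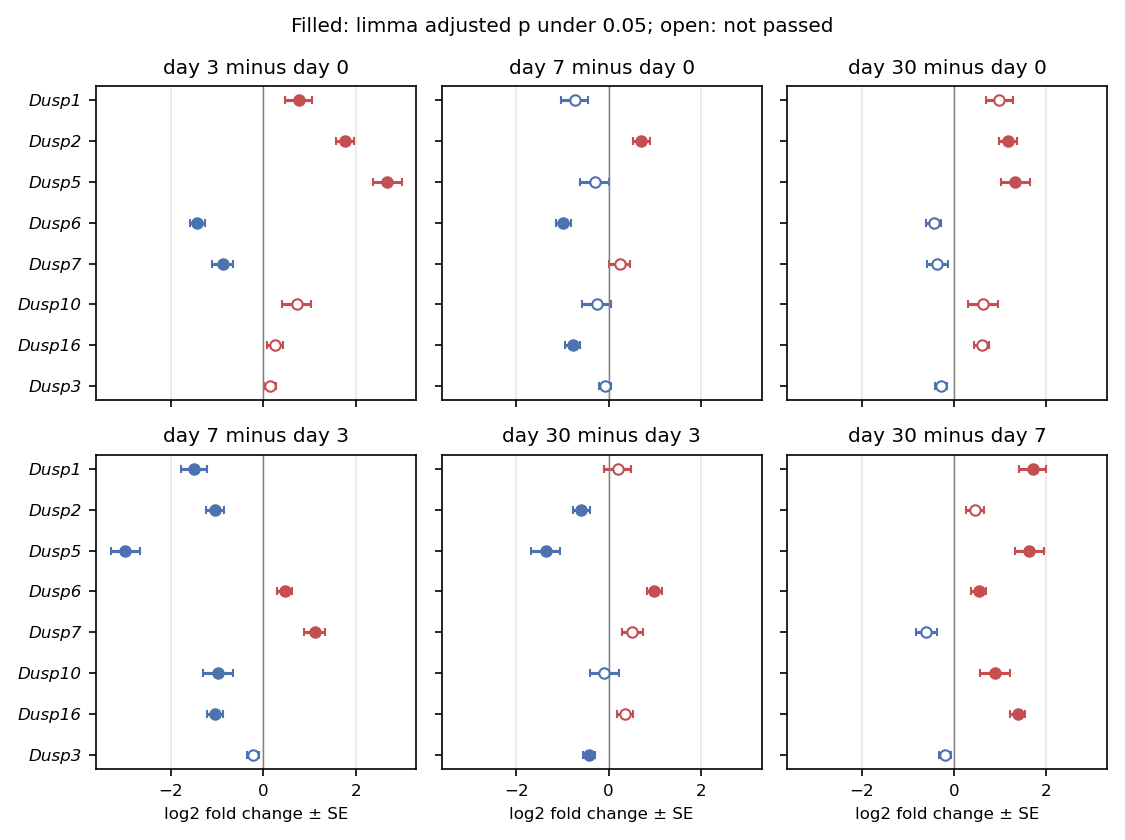
Log2 fold change ± SE of the 8 tested phosphatase genes in the 6 comparisons (limma, n = 3 against 3); filled points passed at an adjusted p under 0.05, red is higher and blue lower in the later group. From day 7 to day 30, 5 filled points lie on the higher side and none on the lower side; from day 0 to day 3 they lie on both sides.

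The make-up of the family was computed from the signal per kb. Dusp1 took 59.6% to 81.3% of the summed signal of the 9 genes on day 0, with the highest share in the first library. Its share was 82.6% ± 0.943 on day 3, 65.4% ± 5.74 on day 7 and 83.1% ± 0.269 on day 30 (SD, n = 3). Dusp6 took 18.2% ± 6.7 on day 0, 4.51% ± 0.516 on day 3, 14.2% ± 3.52 on day 7 and 7.88% ± 0.18 on day 30. The share of Dusp5 was 2% ± 0.389 on day 3 and had means of 0.312% to 0.617% on the other days. The sum itself was 306 ± 139.6 per kb on day 0, 405 ± 45.6 on day 3, 179.6 ± 6.2 on day 7 and 461 ± 12.4 on day 30. The day 7 libraries had the lowest sums, without overlap with any other day.

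**Figure D4:**
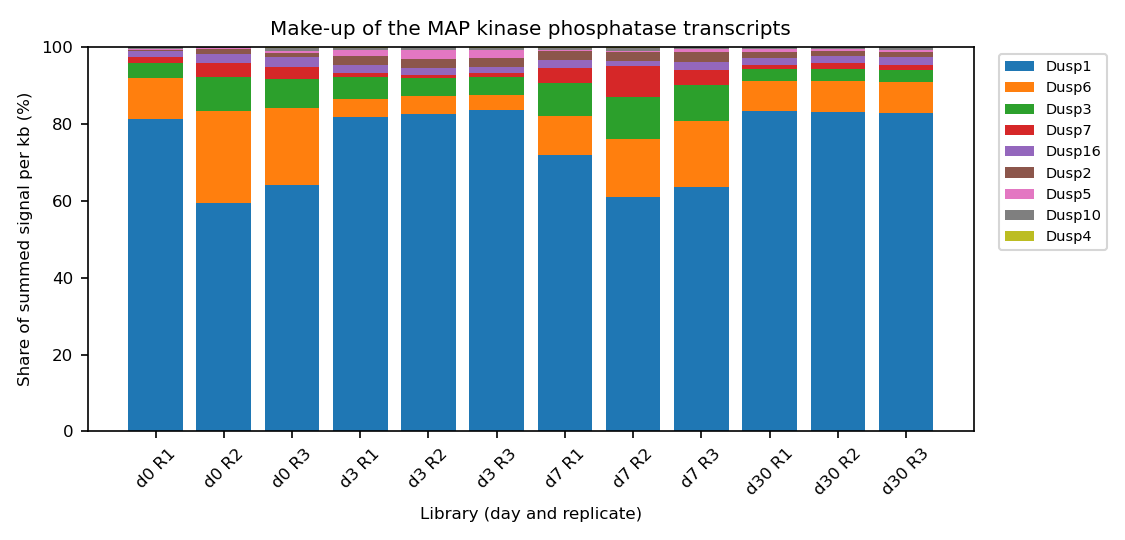
Share of each phosphatase gene in the summed signal per kb of the 9 genes (percent, vertical axis from 0 to 100) in the 12 libraries, labelled by day (d) and replicate (R). Dusp1 fills 81.3% of the first day 0 library and 59.6% of the lowest day 0 library, against 82.8% to 83.4% on day 30.

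The genes that followed each phosphatase most closely over the 12 libraries were found by Pearson r of log2(signal + 1), as a description with no test, since the libraries share their groups. Nearest to Dusp1 were Nfkbia, which encodes an NF-kB inhibitor (r = 0.987, and 0.99 with the group means removed), the chemokine gene Cxcl2 (0.983 and 0.98) and the amino acid transporter gene Slc38a2 (0.953 and 0.88). The spread of Dusp1 within days lay mostly in day 0, where the first library had 1255 against 418 and 508 (SD 459). On the other days the SD was 33.8 to 136. Its values with the group means removed thus rest largely on that day 0 library. For Dusp16 they were Crebzf (0.984 and 0.90), the splicing kinase gene Clk1 (0.980 and 0.88) and Ccdc88a (0.977 and 0.92). For Dusp5 they were Ssfa2 (0.986), Srgap2 (0.981) and the inhibitory receptor gene Lilrb4 (0.977), with 0.82, 0.71 and 0.64 once group means were removed. For Dusp6 they were Arhgef3 (0.983 and 0.82), Selenbp1 (0.964 and 0.36) and the phosphatase gene Ptpro (0.963 and 0.47). Dusp2 lay nearest to Rab11fip1 (0.963), the interferon-induced Ifi44 (0.962) and the transcription factor gene Bhlhe40 (0.959), but with the group means removed these were 0.40, 0.31 and 0.46. Dusp7 lay nearest to Mfge8 (0.967 and 0.88), Cd151 (0.966 and 0.97) and Mpv17 (0.954 and 0.83). Its spread within days lay mostly in the second day 7 library, with 47.2 against 23.5 and 23.1. Dusp3 lay nearest to Dtx2 (0.950 and 0.92), Rasa3 (0.947 and 0.93) and Tpst2 (0.946 and 0.74). Less close were the genes nearest to Dusp10, Foxk1 (0.874 and 0.76), Scaf4 (0.868 and 0.84) and Vamp2 (0.856 and 0.65).

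Between the phosphatases themselves, the highest r over the 12 libraries was that of Dusp1 with Dusp16, at 0.89, and 0.52 with the group means removed. Dusp2 with Dusp5 had 0.85 (0.43 within groups) and Dusp1 with Dusp5 0.78 (0.61). Dusp5 with Dusp7 had the lowest, -0.89 (-0.52). The values of Dusp1 within groups rest largely on the first day 0 library, and those of Dusp7 on the second day 7 library. Dusp2 and Dusp6 had -0.77 over all libraries and 0.03 within groups, so their opposite course was between days and not between libraries of a day.

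Genes of the MAP kinases, which include the substrates of these enzymes, and of the kinases above them were read from lists of the pathway. Of 11 MAP kinase genes 7 were in the table and tested. On day 3 against day 0, where 44.2% of all tested genes passed, 3 rose and 2 fell, with a median of 0.56 (-0.02 over all genes). Mapk6, which encodes the atypical kinase ERK3, rose from 39 ± 16.9 to 201 ± 21 (2.41 ± 0.23, adjusted p = 6.16e-07), and Mapk14, which encodes p38 alpha, fell from 169.6 ± 25.5 to 91.1 ± 5.34 (-0.88 ± 0.14, adjusted p = 0.000128). From day 7 to day 30, where 39.6% of all genes passed, 2 rose and 1 fell. Mapk3, which encodes ERK1, changed by -1.38 ± 0.21 (adjusted p = 0.000218) from 176 ± 75 to 63.8 ± 1.82, and Mapk8, which encodes JNK1, rose from 14.4 ± 7.09 to 31.2 ± 2.69 (adjusted p = 0.00497, and 0.114 with the day 30 libraries averaged).

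Of the 7 MAP kinase kinase genes, 2 rose and 1 fell from day 0 to day 3, a share near the 44.2% of all tested genes. Map2k3, an activator of p38, rose from 13.8 ± 3.62 to 41.4 ± 9.8 (1.52 ± 0.24, adjusted p = 9.45e-05), and Map2k6, another activator of p38, fell from 3.57 ± 1.34 to 1.15 ± 0.184 (-1.04 ± 0.38, 0.0339). The Map2k6 call ended under 8 alternatives, among them leaving out replicate 1 or 3 of day 0 (adjusted p = 0.113 and 0.0821) or replicate 1, 2 or 3 of day 3 (0.0851, 0.0736 and 0.0624). Of the 12 Raf and MAP3K genes 3 rose and 4 fell (44.2% of all genes passed), with Braf higher by 1.16 ± 0.25 (adjusted p = 0.0013). Map3k8, a kinase of toll-like receptor signalling, had the day 7 minimum also seen in Dusp1 and Dusp16: it was 43.5 ± 6.08 on day 0, 51 ± 4.85 on day 3, 25.2 ± 7.23 on day 7 and 65.2 ± 3.34 on day 30. It fell from day 3 to day 7 (-1.02 ± 0.18, adjusted p = 0.000386) and rose from day 7 to day 30 (1.37 ± 0.18, 9.6e-05). Of the 10 genes for kinases that MAP kinases activate, 2 rose and 1 fell from day 0 to day 3, and 2 rose and 1 fell from day 0 to day 7, where 44.2% and 21.6% of all genes passed. Mapkapk3, a target of p38, was higher on both days (1.34 ± 0.22 and 1.38 ± 0.22, adjusted p = 0.000144 and 0.00046).

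Of 12 other dual specificity phosphatase genes 8 were in the table. From day 0 to day 3, where 22.1% of all tested genes rose and 22.1% fell, none rose and 3 fell, with a median of -0.23 (-0.02 over all genes): Dusp23 (-1.60 ± 0.35, adjusted p = 0.00157), Dusp19 (-0.90 ± 0.29, 0.0192) and Dusp22, a regulator of JNK (-0.85 ± 0.16, 0.000566). The Dusp19 call ended without the third day 0 library (adjusted p = 0.0626), without the second day 3 library (0.0838) and under quantile normalisation (0.111). Dusp8, a phosphatase of JNK and p38 and a close relative of Dusp16, was the 1 gene of the 8 that passed from day 0 to day 30, where 6.18% of all genes did. It was 2.86 ± 0.581 on day 0, 1.76 ± 0.137 on day 3, 3.54 ± 1.25 on day 7 and 7.5 ± 0.781 on day 30. It rose by 1.15 ± 0.25 from day 0 to day 30 (adjusted p = 0.0124) and by 0.93 ± 0.25 from day 7 to day 30 (0.00816). The first of these ended without the second day 0 library (adjusted p = 0.0671) and without replicate 1 or 2 of day 30 (0.0632 and 0.0782), and with the day 30 libraries averaged both ended (0.52 and 0.173). Like Dusp16 it was highest on day 30, but its lowest day was day 3 where that of Dusp16 was day 7.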

How the data were processed

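The authors deposited 1 table of normalised signal for 14460 genes in 12 libraries. The submitters' processing notes name cutadapt 1.3, RSEM 1.2.20, edgeR 3.14.0 and GRCm38. The deposited signal is linear, and it was a whole multiple of 1 step in each library, so reads could be recovered (100% of values whole within 0.02 reads). The table's other 12 value columns were not used. Total RNA was sequenced, and whether the libraries kept strand is not given in the sources used here. Normalised values tell of shares of the RNA and not of amounts per cell.

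Genes whose signal averaged 1 or more (12879) were fitted as log2(signal + 1) with limma 3.58.1 in R 4.3.3, with a trend in the variance prior, 4 group means and 8 residual degrees of freedom. Tests were two-sided with Benjamini-Hochberg adjustment over all tested genes and 0.05 as threshold. The fit was tested on simulated data. The p-values measure the spread between these libraries. Alternatives were a pseudocount of 0.1 or 5, dropping the filter or raising it to 5, median centring or quantile normalisation, the replicate number as a block, edgeR 4.0.16 and DESeq2 1.42.0 on recovered reads, the day 30 libraries averaged as 1 sample (taken to vary like the other groups), both libraries that stood apart left out, the compared groups alone, and each library left out.

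The 9 genes, the pathway and marker lists and the alternatives were chosen with earlier results of these data known. All 9 genes are named, with up to 3 genes per list and comparison that passed, by size of change, of which some are printed, and the 3 genes nearest to each phosphatase among those with a mean signal of at least 10. The kinase genes Mapk10, Mapk11, Mapk12 and Mapk13, Spry3, Dusp9, Dusp14, Dusp15, Dusp26, Ptpn5 and Ptprr were not analysed here. A result for 1 further listed gene is not reported here. Identifiers were placed with GENCODE M21 on GRCm38 (14243 of 14460, 98.5%), whose exons gave the lengths per kb. Start regions are from RefSeq on GRCm38.p6; Dusp4 has no entry. A count of 0 allows 3 reads, a signal of 0.190 to 0.543, which covers counting error only.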

Additional observations from a re-analysis of the deposited data

How the results depend on the processing

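Of the 26 phosphatase calls, 13 kept their direction and passed under every alternative run, and 13 ended under at least 1. Over 1152 single values, 1049 kept both, 51 lost the call, 45 gained it and 7 changed sign. The 7, none of which had passed, were under quantile normalisation Dusp3 at day 3 minus day 0 (-0.20) and day 7 minus day 3 (0.10); without the first day 0 and second day 7 library Dusp5 (0.13) and Dusp7 (-0.11) at day 7 minus day 0; without the second day 7 library Dusp7 in that comparison (-0.09 to 0.41 with each library left out); without the third day 0 library Dusp10 there (-0.66 to 0.06); and without the second day 30 library Dusp10 at day 30 minus day 3 (-0.21 to 0.02). The cause was not tested. Of 106 calls for genes of the pathway lists, 46 passed under every alternative that gave a value.

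The number of phosphatases that passed moved by over 1.5 times in 4 comparisons. For day 30 minus day 0 (2) it was 4 with a mean of at least 5, 4 under quantile normalisation, 0 with the day 30 libraries averaged, 4 without both libraries that stood apart, 5 with the compared groups alone, and 1 to 5 with each library left out. For day 30 minus day 3 (4) it was 1 with those libraries averaged and 2 at the lowest with each library left out. For day 30 minus day 7 (5) it was 2 and 3 in the same order. For day 7 minus day 0 (3) it was 1 with the compared groups alone. Averaging leaves 1 sample on day 30.

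Over all genes, day 30 minus day 0 called 796, but 13 with the day 30 libraries averaged, 1328 by DESeq2, 2513 without both libraries that stood apart and 2674 with the compared groups alone. With the day 30 libraries averaged, day 30 minus day 3 called 2019 (5079), day 30 minus day 7 824 (5103) and day 7 minus day 0 1741 (2782); the last called 1158 with the compared groups alone.

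No pairing of the libraries by replicate number was seen, and the labels do not say whether a number marks a shared animal, day or batch. Deviations from group means correlated at a median r of 0.0049 (-0.0831 to 0.210) in 18 pairs of libraries with the same number and -0.0069 in 36 with different numbers. With a replicate block 47 of 48 phosphatase values kept their call, and day 30 minus day 7 in Dusp7 (-0.60) passed (adjusted p = 0.0485); the count of that comparison was 6. Low depth limits Dusp4, Dusp5 and Dusp10 most.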

Other observations

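Other brakes on MAP kinase signalling were read in the same libraries. Sprouty and Spred proteins hold back the ERK cascade upstream of Raf, and 6 of their 7 genes were in the table. From day 0 to day 3, 2 of the 6 rose and none fell, where 44.2% of all genes passed, and the median of the 6 was -0.38 (-0.02 over all genes), opposite to the genes that rose. These were Spry2 from 2.35 ± 0.978 to 13.8 ± 3.33 (2.16 ± 0.34, limma adjusted p = 9.49e-05) and Spred3 from 1.5 ± 0.754 to 3.87 ± 1.29 (0.97 ± 0.30, 0.0158). The Spred3 call ended without the second day 0 library (adjusted p = 0.0677) or replicate 1 or 2 of day 3 (0.0689 and 0.0505). Spry2 fell again from day 3 to day 7 (-1.74 ± 0.34, adjusted p = 0.000714) and was 5.47 ± 0.576 on day 30. Spred1, the most abundant of the 6 in signal, fell from 150.2 ± 19.7 on day 0 to 102 ± 32.3 on day 7 (-0.59 ± 0.20, adjusted p = 0.0432) and was 199 ± 4.85 on day 30, a rise of 1.01 ± 0.20 in log2 over day 7 (adjusted p = 0.00127, and 0.0666 with the day 30 libraries averaged). Its fall by day 7 ended under 13 of 24 alternatives, among them edgeR on recovered reads (adjusted p = 0.0564), leaving out replicate 1 or 2 of day 0 (0.122 and 0.111), 2 or 3 of day 3 (0.0517 and 0.0593), or 1 or 2 of day 7 (0.0533 and 0.135), and leaving out any day 30 library (0.0624 to 0.0626).

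Phosphatases of other families also act on MAP kinases, and 6 of 8 listed genes were in the table. From day 0 to day 3, 1 rose and 4 fell (44.2% of all genes passed), with a median of -0.57 (-0.02 over all genes). Ppp2ca, a catalytic subunit of protein phosphatase 2A, rose from 127 ± 21.3 to 231 ± 7.79 (0.87 ± 0.15, adjusted p = 0.000286), while Ppp2cb, the other catalytic subunit, fell from 27.9 ± 3.2 to 16.9 ± 2.22 (-0.69 ± 0.16, 0.00245). Ppm1d, a phosphatase of p38, fell from 18.6 ± 1.65 to 10.2 ± 0.694 (-0.81 ± 0.17, 0.00131). From day 0 to day 7 and from day 0 to day 30 none of the 6 passed.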
